A study of Mus musculus with 8 samples.

Results

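Expression of 8 genes known from antibody-secreting plasma cells was examined in B220+CD3+ spleen cells of lupus-prone mice. They were Pou2af1, Sdc1, Xbp1, Irf4, Mzb1, Jchain, Tnfrsf17 and Tnfrsf13b, 8 of the 17384 genes in the deposited table, found there by symbol. The set was chosen on values from these same libraries, namely the high levels of Pou2af1 and Sdc1 in these T cells and the way both failed to follow B cell markers between genotypes. For this pair the levels and the genotype difference are therefore given as a description, with no test result.

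The tested group was Eaf2-/-Faslpr, titled EAF2Faslpr, with 4 libraries, and it was set against Faslpr with 4 libraries. Both groups carry Faslpr, the lpr allele of the death receptor gene Fas, so no wild type is among them. Faslpr mice accumulate T cells that stain for B220, an isoform of the surface phosphatase CD45 usually seen on B cells. Eaf2 encodes a partner of the ELL transcription elongation factors. The series' own question for this sort was which signalling pathways act in apoptosis. The labels name no strain, age, sex or deleted part of Eaf2 and do not say whether each library is 1 animal. The p-values therefore cover the spread among these 8 libraries alone, which may be technical.

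Estimated reads per library ranged from 15.6 to 18.6 megareads. A floor of 3 reads corresponded to at most 0.193 reads per megaread (CPM, scaled by TMM factors). Eaf2 itself was at 4.43, 4.20, 4.02 and 6.29 CPM in the Eaf2-/-Faslpr libraries, against 25.7, 24.2, 20.7 and 31.5 CPM in the Faslpr libraries (exact two-sided permutation test over 70 orderings, p = 0.0286, the smallest it allows). The 13 T cell markers summed to between 7248 and 7501 CPM in Eaf2-/-Faslpr and between 6906 and 7149 CPM in Faslpr cells, and 1 of them rose, the adhesion receptor Cd2 (log2 fold change 1.05, SE 0.18). The most abundant of them, the adaptor Lat, was at 746 ± 87.8 CPM in Eaf2-/-Faslpr and 709 ± 116 CPM in Faslpr cells. The 18 B cell markers summed to 517, 572, 949 and 575 CPM in Eaf2-/-Faslpr, against 257, 320, 338 and 307 CPM in Faslpr libraries. None of either list was at 0 in all libraries. The T cell sum was above the B cell sum in every library, and the B cell sum was higher in every Eaf2-/-Faslpr than in any Faslpr library. The lists differ in their genes, so the sums do not size cell types. Which cells carried the B cell transcripts was not tested. In bulk RNA, fewer cells of a type and less RNA per cell cannot be told apart.

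Plasma cells are the end stage of B cell differentiation and secrete antibody. IRF4 starts the programme, XBP1 enlarges the endoplasmic reticulum, and the coactivator encoded by Pou2af1 (OCA-B, also BOB1 or OBF-1) binds octamer factors on immunoglobulin and other promoters. Syndecan-1, the Sdc1 product also called CD138, is the surface proteoglycan by which plasma cells are sorted. MZB1 is an endoplasmic reticulum chaperone for immunoglobulin, and the joining chain from Jchain links IgM and IgA into polymers. The TNF receptor family members BCMA (Tnfrsf17) and TACI (Tnfrsf13b) bind the survival ligands APRIL and BAFF. Several of these genes are also used by T cells: Irf4 and Pou2af1 are induced on activation, Xbp1 acts in effector T cells, and T cells bearing CD138 are known in lpr mice.

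The promoters of the 3 most abundant genes of the set are shown because Pou2af1 has been described as a target of XBP1. Sdc1 ran close to Pou2af1 over the libraries, but Xbp1 followed them less closely. Pearson's r of log2 CPM over 8 libraries was 0.63 for Pou2af1 with Xbp1 and 0.78 for Sdc1 with Xbp1. For deviations from the group means it was 0.29 and 0.37. Promoters of 7 of the 8 genes were matched in RefSeq on GRCm38.p6, each running from 250 bases before to 50 bases after the annotated start. The deposited counts were made on GRCm39, and no coordinate was converted. Each is on the + strand and printed 5′ to 3′: Pou2af1 at chr9:51213440-51213739, Sdc1 at chr12:8771146-8771445 and Xbp1 at chr11:5520391-5520690. Capitals mark the match to TGACGTG, the core of the element that XBP1 binds.
Pou2af1: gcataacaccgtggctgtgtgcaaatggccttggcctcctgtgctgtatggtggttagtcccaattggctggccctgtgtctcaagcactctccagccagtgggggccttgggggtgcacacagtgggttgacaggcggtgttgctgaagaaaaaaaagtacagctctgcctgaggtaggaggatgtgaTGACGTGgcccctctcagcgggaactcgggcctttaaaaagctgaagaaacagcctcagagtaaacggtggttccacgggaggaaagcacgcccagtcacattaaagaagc
Sdc1: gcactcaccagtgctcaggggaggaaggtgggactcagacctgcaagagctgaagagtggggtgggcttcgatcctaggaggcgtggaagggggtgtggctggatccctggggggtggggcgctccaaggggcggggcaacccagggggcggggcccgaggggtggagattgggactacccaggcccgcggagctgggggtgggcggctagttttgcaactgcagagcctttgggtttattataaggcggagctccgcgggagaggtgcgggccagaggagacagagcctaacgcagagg
Xbp1: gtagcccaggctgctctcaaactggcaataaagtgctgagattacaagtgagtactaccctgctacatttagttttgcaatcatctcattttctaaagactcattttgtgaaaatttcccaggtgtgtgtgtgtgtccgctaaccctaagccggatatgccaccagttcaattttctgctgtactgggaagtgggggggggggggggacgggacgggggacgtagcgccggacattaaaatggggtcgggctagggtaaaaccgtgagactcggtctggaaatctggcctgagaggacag

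Pou2af1 held 1 match to TGACGTG, on the + strand between bases −61 and −55 from the start. On either strand this motif occurs in 2.01% of all 32851 promoters of that length in the table. The octamer ATGCAAAT, found in 1.74% of the promoters, was searched on both strands and is not in these 3 windows. Also searched on both strands were the interferon-stimulated response element read by IRF factors (GAAA, 2 free bases, GAAA) and an ETS-IRF composite element bound by IRF4 with PU.1 (GGAA, 2 free bases, GAAA), which differ in the leading bases. Neither is in the 3 windows. Among the other 4 matched genes, Tnfrsf17 held the only match, to the interferon-stimulated response element on the − strand. That element occurs in 3.44% of the promoters and the composite element in 2.72%. A match describes letters in a window and is not evidence of binding.

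Per unit of transcript length, the genes spanned a wide range of levels. By FPKM (reads scaled by transcript length and library size, the authors' values), Pou2af1 ranked 130 of 17384 genes by its mean over 8 libraries, Sdc1 449 and Xbp1 582. Pou2af1 ranged from 353 to 504 FPKM, above every value of the next gene. Sdc1 ranged from 111 to 160 FPKM and Xbp1 from 86.2 to 136 FPKM, so their ranges overlapped, although Sdc1 was the higher of the pair in 7 of 8 libraries. All Xbp1 values lay above those of Jchain, which ranged from 22.3 to 83.2 FPKM. Tnfrsf13b (26.3 to 36.0 FPKM) overlapped with Jchain above it and with Mzb1 (15.6 to 47.7 FPKM) below it. The Tnfrsf13b values may include reads of Usp22, a gene that overlaps it on the other strand. Irf4 ranged from 9.55 to 24.7 FPKM and was below Mzb1 in each of the 8 libraries, with overlapping ranges. Tnfrsf17 stood apart at 0 to 0.49 FPKM. For scale, Cd79a, a subunit of the B cell receptor and the most abundant of the B cell markers, averaged 38.1 FPKM.

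**Figure D1:**
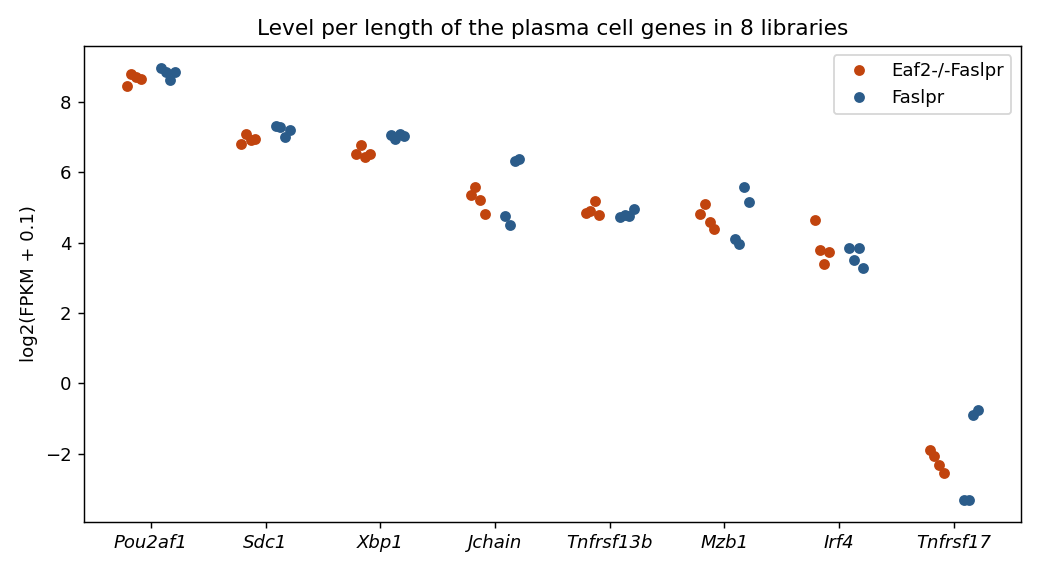
Level per length of the 8 genes as log2(FPKM + 0.1) on the y axis, genes ordered by mean FPKM on the x axis, 1 point per library, Eaf2-/-Faslpr left of Faslpr for each gene. Pou2af1 lies above all other genes in all 8 libraries and Tnfrsf17 lies below all others, with 2 Faslpr libraries at 0 FPKM.

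Pou2af1 was at 888, 1126, 1042 and 1013 CPM in the Eaf2-/-Faslpr libraries, against 1289, 1169, 999.99 and 1158 CPM in the Faslpr libraries. The groups overlapped, with the lowest value in Eaf2-/-Faslpr replicate 1 and the highest in Faslpr replicate 1. The means were 1017 ± 98.4 and 1154 ± 118 CPM (SD, n = 4 each), a fold change of 0.882 that was used in choosing the gene. Its DNA-binding partners, the octamer factors, gave no call: Pou2f2 (OCT2) was at 253 ± 7.46 CPM in Eaf2-/-Faslpr and 279 ± 24.5 CPM in Faslpr cells. Pou2f1 (OCT1) was at 151 ± 5.24 against 141 ± 21.9 CPM. Of 5 listed octamer and OCA-B family genes, 2 were tested, 0 passed by edgeR, 0 had an unadjusted p under 0.05, and 0 passed by DESeq2 or limma. Their adjusted p was 0.277 for Pou2f2 and 0.650 for Pou2f1 (edgeR).

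Sdc1 was at 331, 406, 352 and 369 CPM in the Eaf2-/-Faslpr libraries, against 482, 464, 382 and 429 CPM in the Faslpr libraries. Only Eaf2-/-Faslpr replicate 2 reached into the Faslpr range, above Faslpr replicate 3. The means were 365 ± 31.8 and 439 ± 43.9 CPM (SD, n = 4 each), a fold change of 0.830, again part of the choice. Sdc1 and Pou2af1 moved together from library to library: the ratio of Pou2af1 to Sdc1 in FPKM stayed between 2.97 and 3.46. Pearson's r of their log2 CPM over the 8 libraries was 0.94 and Spearman's rho 0.90. It was 0.93 for deviations from the group means and 0.86 without the 2 libraries farthest from the Pou2af1 median. These correlations are descriptions over libraries that share their normalisation.

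Other genes of the syndecan pathway changed in both directions. Of 18 tested syndecan and heparan sulfate genes, 3 rose, 1 fell and 14 did not pass, with a median log2 fold change of 0.04 against −0.01 over all genes tested. Among all 12340 genes tested, 12.1% passed, 7.14% higher and 4.96% lower in Eaf2-/-Faslpr cells (adjusted p under 0.05, edgeR's quasi-likelihood test). Xylt2, which starts the sugar chains of proteoglycans, rose to 35.8 ± 8.23 CPM in Eaf2-/-Faslpr, against 18.2 ± 1.41 CPM in Faslpr cells (adjusted p = 0.00261, edgeR). Hpse, encoding the heparan sulfate cleaving enzyme heparanase, rose 2.75-fold, and Sdc4, another syndecan, rose 2.14-fold, and both stayed below 2 CPM in every Faslpr library. Extl3, a glycosyltransferase of chain initiation, fell to 166 ± 26.6 CPM in Eaf2-/-Faslpr, against 221 ± 17.7 CPM in Faslpr cells. Sdc4 and Extl3 each lost their call in 5 of 8 fits that left out 1 library (adjusted p up to 0.0858 and 0.106, edgeR), and Hpse in 2, without Faslpr replicate 1 or 2 (up to 0.0621). Sdcbp (syntenin), an adaptor that binds syndecan tails and the most abundant gene of the list, was at 363 ± 12.6 against 389 ± 27.8 CPM.

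**Figure D2:**
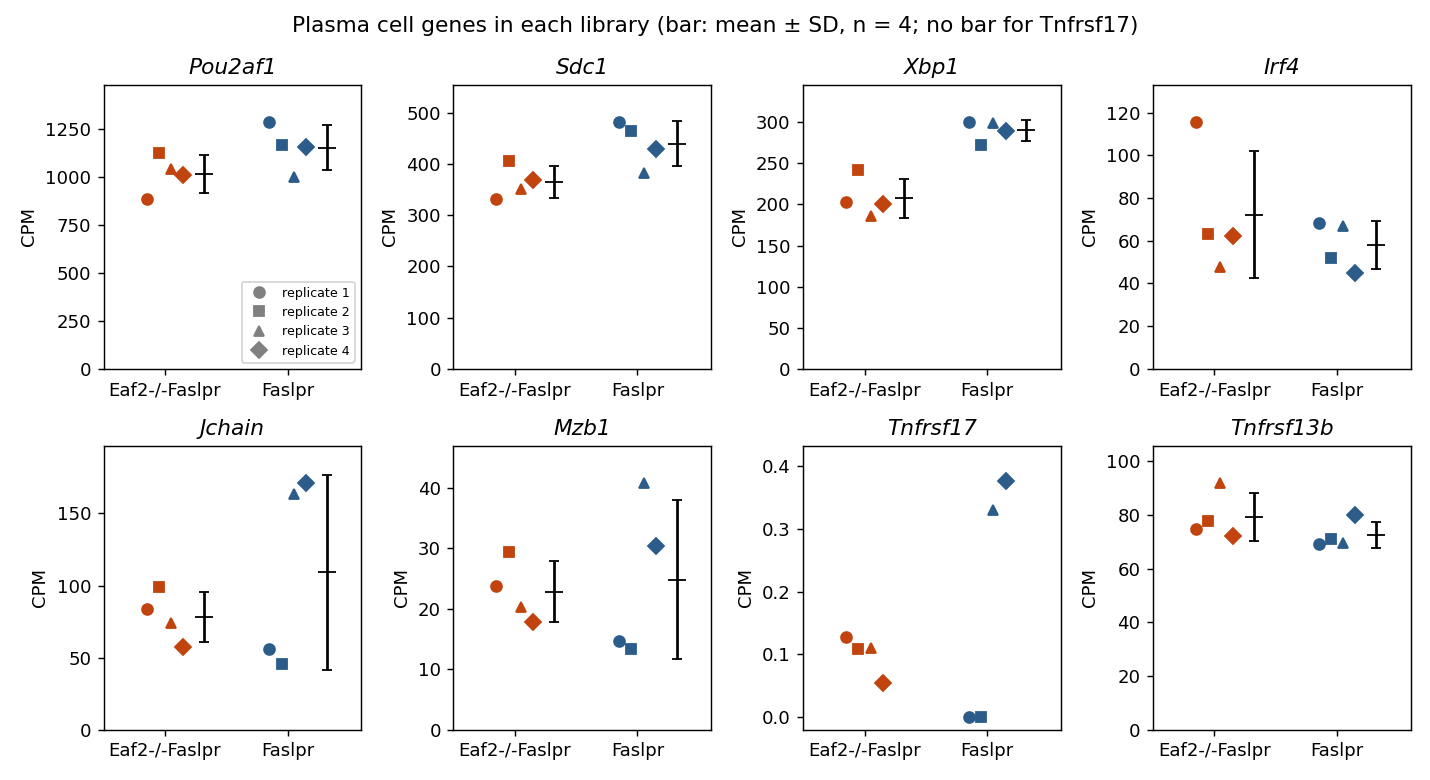
CPM of the 8 genes, 1 panel per gene, Eaf2-/-Faslpr left of Faslpr, 1 symbol per replicate number, bars showing mean ± SD (n = 4), omitted for Tnfrsf17. Xbp1 is the only panel in which the groups do not overlap, and in Jchain, Mzb1 and Tnfrsf17 Faslpr replicates 3 and 4 lie above the other 6 libraries.

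Xbp1 was the 1 gene of the set that passed the genotype test. It was at 203, 241, 186 and 200.03 CPM in the Eaf2-/-Faslpr libraries, against 300.2, 272, 298 and 289.6 CPM in the Faslpr libraries. Every Eaf2-/-Faslpr library lay below every Faslpr library. Among all genes tested, the groups did not overlap for 17.7%. The means were 208 ± 23.6 and 290.2 ± 12.7 CPM (SD, n = 4 each), and Xbp1 fell 1.40-fold (log2 fold change −0.48, SE 0.09, adjusted p = 0.00497, edgeR's quasi-likelihood test). It was called whichever of the 8 libraries was left out (adjusted p between 0.00244 and 0.0191, edgeR). Of the 7 genes of the set that passed the filter on low counts, 5 were not those whose values the choice cites. The whole set was nonetheless drawn up with earlier results of these data known. Of these 5 genes, 1 was called, where 12.1% of all genes tested were called. These counts per gene do not separate the spliced, active Xbp1 message from the unspliced one.

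Secretory pathway genes that XBP1 drives in plasma cells changed in both directions. Of 32 tested, 3 rose, 1 fell and 28 did not pass, a share near the 12.1% of all genes tested, with a median log2 fold change of 0.03. Hspa5, the chaperone BiP, was at 682 ± 34.4 CPM in Eaf2-/-Faslpr and 473 ± 36.2 CPM in Faslpr cells (log2 fold change 0.53, SE 0.08, adjusted p = 0.00162, edgeR). Dnajb9, a co-chaperone of BiP, rose 1.81-fold to 39.2 ± 3.11 CPM, against 21.7 ± 3.40 CPM in Faslpr cells. Dnajc3, another co-chaperone, rose 1.29-fold and lost its call in 4 of 8 fits that left out 1 library (adjusted p up to 0.0795, edgeR). In the other direction, Hsp90b1, the chaperone GRP94 and the most abundant gene of the list, was at 1314 ± 67.0 CPM in Eaf2-/-Faslpr and 1757 ± 134 CPM in Faslpr cells (log2 fold change −0.42, SE 0.08, adjusted p = 0.00575, edgeR). Hspa5, Dnajb9 and Dnajc3 rose where Xbp1 fell, and Hsp90b1 fell as Xbp1 did. With a share of calls near that of all genes, these few give the list no direction relative to Xbp1. Whether they depend on Xbp1 was not tested.

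Of 10 tested stress sensors and other stress pathway genes, 2 rose and none fell, where 12.1% of all genes tested passed. Atf4, the factor of the integrated stress response and the most abundant of them, was at 236 ± 28.4 CPM in Eaf2-/-Faslpr and 169.6 ± 21.7 CPM in Faslpr cells (adjusted p = 0.0191, edgeR). Ddit3, the ATF4 target CHOP, was at 48.1 ± 4.30 against 37.0 ± 4.54 CPM (adjusted p = 0.0385, edgeR). Neither call was stable: Atf4 lost it in 3 and Ddit3 in 5 of the 8 fits that left out 1 library (adjusted p up to 0.0558 and 0.117, edgeR), and 0 genes of the list passed without Eaf2-/-Faslpr replicate 3, Eaf2-/-Faslpr replicate 4 or Faslpr replicate 1. Ern1, the kinase and endonuclease IRE1 that splices Xbp1 mRNA, named after its values were seen, was at 16.0 ± 1.33 against 16.9 ± 3.67 CPM (log2 fold change −0.08, 95% interval −0.44 to 0.27). The sensor genes Atf6 and Eif2ak3, also named after their values were seen, did not pass (adjusted p = 0.537 and 0.110, edgeR).

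Jchain, Mzb1 and Tnfrsf17 showed a pattern of their own, with a split inside the Faslpr group. Jchain was at 83.4, 98.8, 74.0 and 57.1 CPM in the Eaf2-/-Faslpr libraries, against 55.7, 45.8, 163 and 171 CPM in the Faslpr libraries. Faslpr replicates 3 and 4 were thus the highest of all 8, Faslpr replicates 1 and 2 the lowest, and the Eaf2-/-Faslpr libraries lay between them. The difference between genotypes did not pass (log2 fold change −0.48, SE 0.40, 95% interval −1.36 to 0.40, adjusted p = 0.515, edgeR). Within Faslpr, the highest library was 3.74 times the lowest, and the SD of log2 CPM was larger than that of 98.7% of the genes tested. In Eaf2-/-Faslpr cells the same ratio was 1.73.

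Mzb1 was at 23.8, 29.5, 20.3 and 17.8 CPM in the Eaf2-/-Faslpr libraries, against 14.7, 13.3, 40.9 and 30.3 CPM in the Faslpr libraries. Its order over the libraries was nearly that of Jchain, with Spearman's rho of 0.98 and Pearson's r of 0.94 over 8 libraries, 0.97 for deviations from the group means, and 0.90 without the 2 libraries farthest from the Mzb1 median. The genotype difference did not pass (log2 fold change −0.12, SE 0.33, 95% interval −0.85 to 0.61, adjusted p = 0.864, edgeR). It turned to 0.23 without Faslpr replicate 3.

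Tnfrsf17, the BCMA gene, was the member that the filter on low counts removed. It had 2, 2, 2 and 1 reads in the Eaf2-/-Faslpr libraries, against 0, 0, 6 and 7 reads in the Faslpr libraries, rounded. The reads of this gene thus lay mostly in the Faslpr libraries that were also high in Jchain and Mzb1, replicates 3 and 4. At this depth a genotype difference was not detectable (exact two-sided permutation test of CPM over 70 orderings, p = 0.457), and a count of 0 allows up to 0.179 CPM in those libraries. Tnfrsf17 lies on chromosome 16, as Eaf2 does.

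Some other secretory genes had profiles like that of Jchain over the libraries. The genes named in this paragraph were picked after their values were seen. Creld2, an endoplasmic reticulum stress protein, was at 28.7, 32.2, 28.7 and 27.4 CPM in the Eaf2-/-Faslpr libraries, against 26.4, 27.3, 36.7 and 42.5 CPM in the Faslpr libraries, with r = 0.94 to Jchain over 8 libraries and 0.87 without the 2 libraries farthest from the Jchain median. Txndc5, a protein disulfide isomerase, was at 142, 164, 131 and 131 CPM in the Eaf2-/-Faslpr libraries, against 113, 113, 161 and 156 CPM in the Faslpr libraries, with r = 0.87 to Jchain and 0.95 to Mzb1. Derl3, a component of protein disposal from the endoplasmic reticulum, gave r = 0.85 to Jchain at levels between 2.46 and 5.97 CPM, and 0.67 without those 2 libraries. Fkbp11, a peptidyl-prolyl isomerase of the secretory pathway, was at low levels, between 0.458 and 1.51 CPM. Its r to Jchain was 0.81 and fell to 0.20 without those 2 libraries, so that relation rested on them. In Creld2, Txndc5, Derl3 and Fkbp11 the highest 2 Faslpr libraries were again replicates 3 and 4. Other genes of the secretory list did not share this split. Edem3 was at 78.1, 75.5, 84.3 and 58.6 CPM in Faslpr replicates 1 to 4, and Dnajc3 at 158, 129, 153 and 119 CPM. Ssr1, Ssr3, Sel1l, Spcs3 and Lman1 also had their lowest Faslpr value in replicate 4. The share of that list with the split was not counted. Of the 5 summed marker lists, that of macrophages had its highest Faslpr values in replicates 3 and 4 too, at 48.6, 48.1, 55.7 and 57.8 CPM in Faslpr replicates 1 to 4. In the Eaf2-/-Faslpr libraries, where Jchain was lower than in those replicates, the macrophage sum was 59.0, 64.2, 136 and 50.2 CPM. The other 4 lists did not have replicates 3 and 4 as their highest Faslpr pair. In Faslpr replicates 1 to 4, B cell markers summed to 257, 320, 338 and 307 CPM and plasmacytoid dendritic markers to 227, 265, 236.5 and 252 CPM. T cell markers summed to 7149, 6906, 7075 and 6956 CPM and neutrophil markers to 14.1, 16.3, 17.8 and 12.7 CPM. The part of other cell types in this split was not tested.

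**Figure D3:**
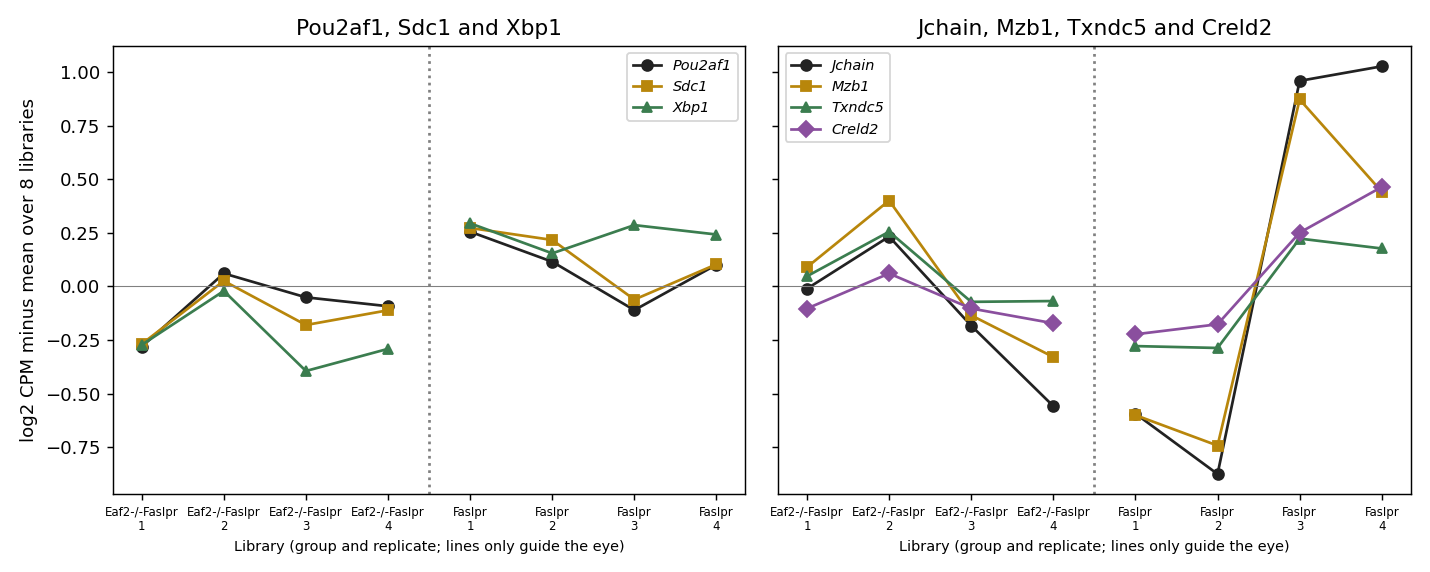
Deviation of log2 CPM from its mean over the 8 libraries (y axis) by library (x axis), Eaf2-/-Faslpr left of Faslpr, with lines only to guide the eye. In the left panel Pou2af1 and Sdc1 run close together and Xbp1 lies lower in all 4 Eaf2-/-Faslpr libraries, and in the right panel Jchain, Mzb1, Txndc5 and Creld2 are high in Faslpr replicates 3 and 4 and low in Faslpr replicates 1 and 2.

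Irf4, a transcription factor induced by antigen receptor signals, was at 116, 63.4, 47.9 and 62.0 CPM in the Eaf2-/-Faslpr libraries, against 68.1, 52.1, 67.0 and 44.8 CPM in the Faslpr libraries. Apart from Eaf2-/-Faslpr replicate 1, which was the highest of all, the Eaf2-/-Faslpr libraries lay within the Faslpr range. The difference did not pass (log2 fold change 0.31, SE 0.25, 95% interval −0.23 to 0.86, adjusted p = 0.488, edgeR), and it was −0.0054 without Eaf2-/-Faslpr replicate 1. The gene closest to Irf4 over the 8 libraries, named after its values were seen, was Ssr1 (r = 0.99), a subunit of the translocon-associated complex through which proteins enter the endoplasmic reticulum.

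Other interferon regulatory factors and partners of IRF4 changed in both directions. Of 14 tested, 5 rose, 2 fell and 7 did not pass, where 12.1% of all genes tested passed. The median log2 fold change of the list was 0.19. Irf2, a repressor of interferon responses, fell to 260 ± 20.7 CPM in Eaf2-/-Faslpr, against 391 ± 30.6 CPM in Faslpr cells (adjusted p = 0.00148, edgeR). Irf5, a factor of Toll-like receptor signalling in B and myeloid cells, rose to 9.25 ± 3.19 CPM in Eaf2-/-Faslpr, against 2.57 ± 1.32 CPM in Faslpr cells. B cell markers were higher in the same libraries. Ikzf1, the Ikaros gene and the most abundant of the list, was at 1470 ± 83.2 against 1581 ± 120.2 CPM and did not pass. Irf1 and Spib, among those that rose, each lost the call in 6 of 8 fits that left out 1 library (adjusted p up to 0.143 and 0.101, edgeR).

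Tnfrsf13b, the TACI gene, was at 74.8, 77.6, 92.0 and 72.0 CPM in the Eaf2-/-Faslpr libraries, against 69.3, 71.1, 69.7 and 79.9 CPM in the Faslpr libraries. The groups overlapped, and the highest value was that of Eaf2-/-Faslpr replicate 3, the library that was also highest in B cell markers. The difference did not pass (log2 fold change 0.13, SE 0.09, 95% interval −0.07 to 0.33, adjusted p = 0.440, edgeR), and it was 0.04 without that library. Within Faslpr the highest Tnfrsf13b value was that of replicate 4, where B cell markers summed to 307 CPM. Faslpr replicate 3 had the highest Faslpr B cell sum, 338 CPM, with Tnfrsf13b at 69.7 CPM. The part of B cells in the Tnfrsf13b values was not tested. In the RefSeq annotation of GRCm38.p6, Tnfrsf13b overlaps Usp22 on the other strand, and the strand setting of the counting is unknown, so reads of the pair may not be told apart. Of the other genes of the BAFF and APRIL axis, 6 were tested, 1 rose and none fell, where 12.1% of all genes tested passed. The BAFF receptor gene Tnfrsf13c rose to 15.1 ± 4.16 CPM in Eaf2-/-Faslpr, against 5.66 ± 1.95 CPM in Faslpr cells (log2 fold change 1.41, SE 0.25, adjusted p = 0.00553, edgeR), with Eaf2-/-Faslpr replicate 3 again the highest at 20.9 CPM. Traf1, a signal adaptor and the most abundant gene of that list, was at 277 ± 39.2 against 221 ± 47.7 CPM (adjusted p = 0.224, edgeR). The ligand genes Tnfsf13 (APRIL) and Tnfsf13b (BAFF), both removed by the filter, had at most 0.827 and 0.538 CPM in any library. As counted, Tnfrsf13b and Tnfrsf13c stood at unlike levels per length, 29.2 against 5.49 FPKM on average. The Tnfrsf13b value may include reads of Usp22.

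Further genes of antibody-secreting cells did not move in 1 direction. Of 16 tested, 2 rose, 2 fell and 12 did not pass, where 12.1% of all genes tested passed. The median log2 fold change of the list was 0.12. Cd38, an ectoenzyme also found on B cells, rose to 31.6 ± 6.24 CPM in Eaf2-/-Faslpr, against 11.5 ± 1.96 CPM in Faslpr cells (log2 fold change 1.45, SE 0.16, adjusted p = 0.000428, edgeR). Zbtb20, a factor of plasma cell longevity, rose to 92.5 ± 14.8 CPM, against 49.7 ± 11.3 CPM, and lies on chromosome 16, as Eaf2 does. Sdf2l1, Txndc11 and Dnajb11 of the secretory list, named after their values were seen, lie on that chromosome too. They did not pass (log2 fold change 0.01, 0.08 and 0.04). Distances to Eaf2 were not looked up, so these genes cannot speak to an effect of the Eaf2 locus on Zbtb20. Such an effect was not tested. Cd9, a tetraspanin, fell to 113 ± 9.40 CPM, against 171 ± 12.9 CPM. Slamf7, a receptor of the SLAM family also used by cytotoxic lymphocytes, fell to 1107 ± 103 CPM, against 1410.05 ± 75.5 CPM, a call lost without Eaf2-/-Faslpr replicate 3 or Faslpr replicate 1 (adjusted p up to 0.0553, edgeR). The most abundant of the list per length, Ly6c2, a surface protein of lymphocytes and monocytes, was at 298 ± 59.0 against 291 ± 57.6 CPM. Prdm1, whose product BLIMP1 drives plasma cell differentiation by silencing B cell genes, was at 8.16 ± 2.95 against 10.4 ± 1.61 CPM (95% interval of the log2 fold change −0.85 to 0.15). Ell2, an elongation factor needed for antibody secretion and of the family that EAF2 binds, was at 9.55 ± 2.06 against 12.5 ± 5.11 CPM (95% interval −0.98 to 0.19), with its highest value, 19.9 CPM, in Faslpr replicate 3. Prdm1 and Ell2 were named after their values were seen. Of 13 listed immunoglobulin genes, only the surrogate light chain gene Igll1 was matched by symbol, at no more than 0.0642 CPM in any library. The levels of the other listed immunoglobulin genes are therefore not known here, and Igll1 does not stand in for them.

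The B cell markers are set beside the 8 genes here. Of 18 B cell markers tested, 16 rose, none fell and 2 did not pass, where 12.1% of all genes tested passed. Their median log2 fold change was 1.94, whereas the plasma cell genes that passed the filter ranged from −0.48 for Xbp1 to 0.31 for Irf4. Pax5, which holds the B cell fate and represses plasma cell genes, was at 32.01 ± 10.9 CPM in Eaf2-/-Faslpr and 5.50 ± 2.03 CPM in Faslpr cells, Cd22, an inhibitory B cell receptor, at 66.9 ± 15.9 against 16.7 ± 5.25 CPM, and Blk, a B cell kinase, at 17.1 ± 4.73 against 3.96 ± 1.27 CPM. Because this contrast entered the choice of Pou2af1 and Sdc1, the difference between the lists is given as a description. Among other cell types, 3 of 7 tested plasmacytoid dendritic markers rose and none fell, namely Runx2 (1.66-fold), Irf8 (1.40-fold) and Ccr9, the last lost in 5 of 8 fits that left out 1 library (adjusted p up to 0.0684, edgeR), while Pacsin1, the most abundant, was at 91.8 ± 14.9 against 121 ± 13.1 CPM. Of 10 macrophage markers tested, 1 rose, Lyz2, which was not called when Faslpr replicate 1, 2 or 4 was omitted (highest adjusted p = 0.112, edgeR). Cd68, the most abundant of these, was at 27.2 ± 3.70 against 32.004 ± 5.56 CPM. Of 5 neutrophil markers tested, 0 passed by edgeR, 4 had an unadjusted p under 0.05 and 1 passed by DESeq2. By edgeR, 3 passed without Eaf2-/-Faslpr replicate 1 and 4 without Eaf2-/-Faslpr replicate 2. Their most abundant gene, S100a8, was at 24.9 CPM in Eaf2-/-Faslpr replicate 3 and lower in every other library. Their part in the values of the plasma cell genes was not tested.

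**Figure D4:**
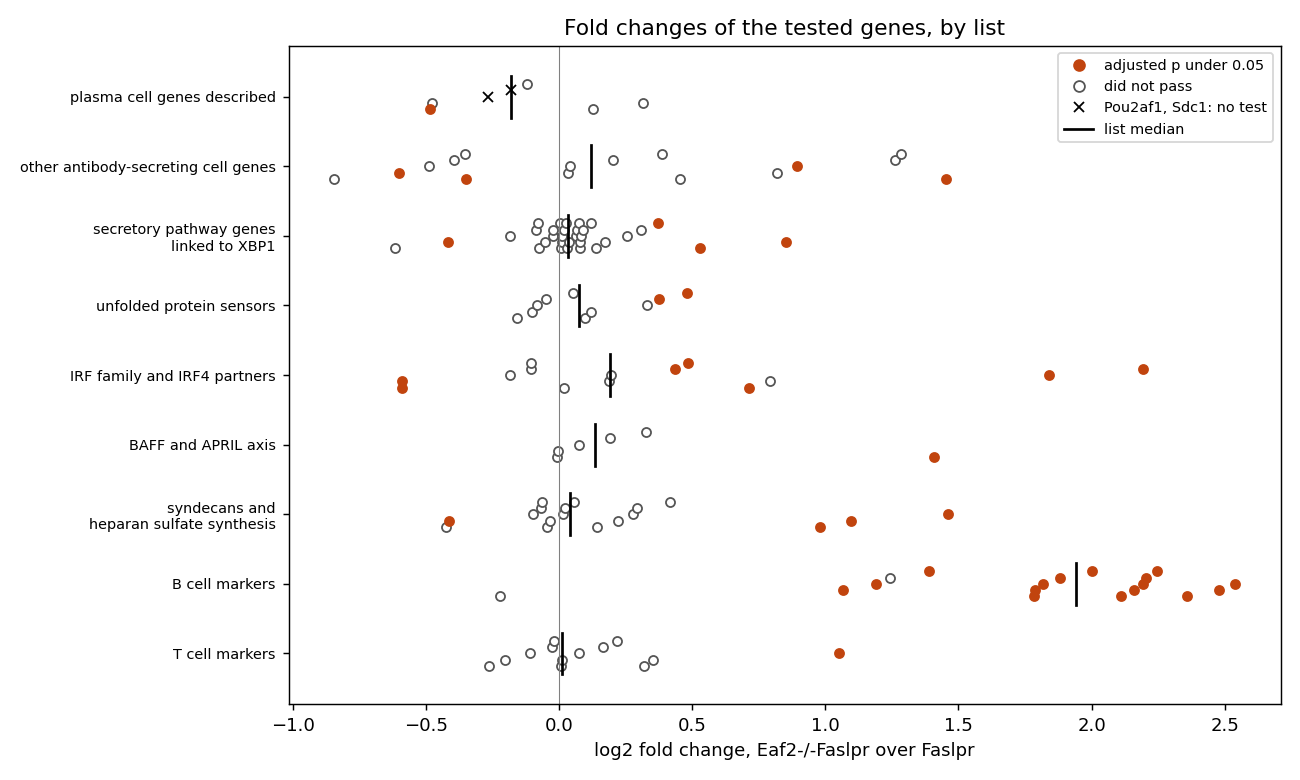
Log2 fold change, Eaf2-/-Faslpr over Faslpr (x axis), of each tested gene in 9 lists (y axis). Points are filled where the adjusted p was under 0.05 (edgeR) and open where it was not. Crosses mark Pou2af1 and Sdc1, whose test results are not given. Black ticks are list medians. The plasma cell genes lie between −0.48 and 0.31, and the 16 B cell markers that passed lie at 1.07 or above.

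Genes with the most similar profiles were looked up among 9926 tested genes that averaged at least 5 CPM, by Pearson's r of log2 CPM over the 8 libraries. With so many genes and 8 libraries high values arise readily, and r is given as a description. Closest to Pou2af1 were Got1 (r = 0.96), a cytosolic transaminase, Snx33 (0.95), a sorting nexin, and Srsf11 (0.94), a splicing factor, and Sdc1 had rank 5. Closest to Sdc1 were Gpsm2 (0.97), a spindle orientation protein, Bcl2l11 (0.97), the gene of the death-promoting protein BIM, and Lpar2 (0.97), a lysophosphatidic acid receptor. Closest to Xbp1 were Tmem18 (0.98), Rhbdd1 (0.97), a rhomboid protease, and Aldh3a2 (0.97), a fatty aldehyde dehydrogenase. Of these 9 genes, Tmem18 (log2 fold change −0.28) and Rhbdd1 (−0.36) passed the genotype test.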

How the data were processed

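Splenic B220+CD3+ cells gave 4 Eaf2-/-Faslpr and 4 Faslpr RNA libraries, grouped by title. Per the labels' protocols, RNA was extracted with TRIzol and a dual-mode mRNA kit was used for DNBSEQ. The submitters' processing notes name HISAT2 2.2.1, Bowtie2 2.4.5, RSEM 1.3.1 and GRCm39, with no role stated. Annotation, filters and strand setting: not given in the sources used here.

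The authors deposited estimated counts per gene, FPKM and TPM per library. For the tests, the estimates were rounded to integers. FPKM served for levels between genes and TPM as its alternative. A further 8 per-sample columns were not used. RSEM shares multi-mapping reads by estimate, so overlapping genes are uncertain.

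Genes were filtered with filterByExpr (12340 kept), scaled by TMM and tested with edgeR 4.0.16 (R 4.3.3, glmQLFit and glmQLFTest, no covariate). Benjamini-Hochberg adjustment ran over all genes tested, with calls under 0.05. SEs are the absolute log2 fold change over the square root of F, and 95% intervals use the t distribution. The code was tested on simulated data. Intervals and floors cover counting error or the spread of these libraries only. Alternatives used DESeq2 1.42.0, limma 3.58.1, other filters and scalings, a replicate block and leaving out each library. Replicates differed by more than sampling noise (chi-square per degree of freedom 9.46 to 37.2).

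The members and all 13 other gene lists were chosen with earlier results of these data known. Named genes were the members, Eaf2, up to 3 called genes by smallest p and the most abundant gene of each list, and the 3 genes most like Pou2af1, Sdc1 and Xbp1, leaving out predicted genes; 1 gene that this rule names is not reported here. Others are marked as named after their values were seen. Outside that rule are also Dnajc3, Extl3, Slamf7, Irf1 and Spib, named for the fits in which they lost their call. Promoter sequences and chromosomes are RefSeq's (GRCm38.p6), and 12253 of the tested genes had a chromosome by Entrez ID.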

Additional observations from a re-analysis of the deposited data

Results flagged for a closer look

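Dixon's criterion for a lone value in a group of 4 was applied to the 8 genes and to 5 summed marker lists in both groups, 26 cases in all, and chance alone would be met in about 1 case in 20. It marked 4 values. Tnfrsf13b in Faslpr replicate 4 was at 79.9 CPM, with the next Faslpr library at 71.1 CPM. In Eaf2-/-Faslpr replicate 3, the summed B cell markers stood at 949 CPM (next 575 CPM), the summed macrophage markers at 136 CPM (next 64.2 CPM) and the summed neutrophil markers at 124 CPM (next 20.4 CPM). Without Eaf2-/-Faslpr replicate 3, Xbp1 had a log2 fold change of −0.44 and an adjusted p of 0.0146 (edgeR).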

How the results depend on the processing

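Across 15 alternatives, the call of Xbp1 and its direction were the same in each (log2 fold change between −0.56 and −0.44), as was the count of 1 called gene among the 5 tested members. Eaf2 stayed between −2.60 and −2.31. The fold changes of Pou2af1 (−0.25 to −0.12) and Sdc1 (−0.33 to −0.22) kept their direction. Irf4 and Mzb1, neither of them called, changed sign: Irf4 ranged from −0.0054 to 0.47 over the fits that left out 1 library, and Mzb1 from −0.33 to 0.23, with 0.024 by limma on log2(FPKM + 0.1). The cause was not tested. Over all genes, between 990 and 1599 passed when 1 library was left out, against 1493, and between 372 and 659 were lower, against 612, the lowest of both without Faslpr replicate 2. With the replicate number as a block, 1425 genes passed and Xbp1 kept its call (adjusted p = 0.0177, edgeR). The labels name no pairing of same-numbered libraries, so the block was not used in the main fit. Deviations of same-numbered libraries of the 2 groups correlated between −0.05 and 0.17, and not every library correlated best with its own number. Such correlations cannot exclude a pairing. Ranks by TPM differed little from those by FPKM (Pou2af1 130, Sdc1 447, Xbp1 580), and with a minimum of 20 CPM the 3 closest genes to Pou2af1, Sdc1 and Xbp1 were the same 3 each. Depth limits Tnfrsf17, with at most 7 reads in a library.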
